A study of Homo sapiens with 9 samples.

Results

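The antioxidant response governed by NRF2 was followed in MDA-MB-231 cells, a triple-negative human breast cancer line, through 9 genes taken by name. They are *NFE2L2*, which encodes NRF2, its inhibitor *KEAP1*, and 7 genes of glutathione, thioredoxin, quinone and haem metabolism under NRF2 control: *GCLC*, *GCLM*, *SLC7A11*, *TXNRD1*, *SRXN1*, *NQO1* and *HMOX1*. Each matched 1 of the 60664 Ensembl genes counted, and all 9 were among the 18264 genes with enough reads to be tested. The rule that chose them uses names only, but it was written with earlier results of these data known.

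The study asked how cells respond to the viscosity of the fluid around them, here by RNA sequencing of 9 samples taken on day 6, with 3 replicates in each of 3 groups. Control cells carrying a scramble hairpin RNA (SC) were kept in medium of 0.77 cP or in medium of 8 cP, the latter reached by adding methylcellulose. Viscosity and methylcellulose thus changed together, and their effects cannot be told apart in these samples. Differences called with viscosity below carry that limit. The third group was shTRPV4 cells at 8 cP, in which a lentiviral hairpin lowers *TRPV4*, a calcium-permeable ion channel of the plasma membrane. The paper put the scramble and the *TRPV4* hairpin in the same vector and kept cells carrying it in puromycin. All 3 groups therefore carried a hairpin, and the shTRPV4 cells are a stable knockdown and not a deletion. No shTRPV4 cells at 0.77 cP were analysed here. The paper names a single *TRPV4* hairpin sequence for this part of its work. Effects of that hairpin other than loss of *TRPV4* were not tested. Nothing in the labels says whether replicates were separate cultures, so p-values measure the spread between these samples only.

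NRF2 is a leucine-zipper transcription factor. In unstressed cells KEAP1 binds NRF2 and delivers it to a CUL3 ubiquitin ligase, so that the protein is short-lived. Oxidants and electrophiles modify cysteines of KEAP1, NRF2 escapes destruction, pairs with a small MAF protein and binds the antioxidant response element of its target genes. NRF2 is thus controlled mainly as a protein, which RNA counts do not measure. In breast and other cancers the response is known for protecting tumour cells from oxidative damage and from drugs.

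To show the element in the genes studied, its 9-base core, TGACNNNGC, was searched on both strands in the 1000 bases before each annotated start. RefSeq promoters on GRCh38.p14 were given for 10 starts of 7 of the genes, and none was matched for *HMOX1* or *SLC7A11*. The core was found before 6 of these 10 starts, against 31.9% of all 35116 starts. Within 250 bases it was found before 4 of 10, against 10.9%. Every match to the core is printed below in capitals with 10 bases on each side, on the strand where it reads as the core. For *SRXN1*, which has none, 1 of its 3 matches to the looser TGANNNNGC is shown, the one that also holds TGANTCA. The looser form occurred before 8 of the 10 starts and 79.2% of all starts, and within 250 bases before 6 of the 10 and 35.2% of all.
KEAP1, 54 bases before the second start, chr19:10502807-10502835, minus strand: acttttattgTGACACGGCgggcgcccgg
KEAP1, 31 bases before the second start, chr19:10502784-10502812, plus strand: caggtcaccaTGACTAAGCagagccgggc
GCLC, 870 bases before the start, chr6:53545953-53545981, plus strand: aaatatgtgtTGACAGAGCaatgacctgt
GCLM, 34 bases before the start, chr1:93909446-93909474, plus strand: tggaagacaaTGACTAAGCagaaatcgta
NQO1, 455 bases before the start, chr16:69726997-69727025, minus strand: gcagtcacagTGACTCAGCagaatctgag
TXNRD1, 99 bases before the first start, chr12:104215670-104215698, plus strand: acacgggctaTGACTTCGCtgttgtcacc
TXNRD1, 102 bases before the second start, chr12:104286920-104286948, minus strand: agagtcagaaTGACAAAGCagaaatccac
SRXN1, looser form, 272 bases before the start, chr20:653454-653482, minus strand: aaactcacccTGAGTCAGCccgcccgggc

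The matches of *NQO1* and *SRXN1* printed here both hold TGANTCA, the letters bound by AP-1, so the 2 motifs overlap there. A match is a description of letters and not a measured binding site. *NFE2L2* had no match to the core at either of its starts and 2 looser matches before the second.

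**Figure D1:**
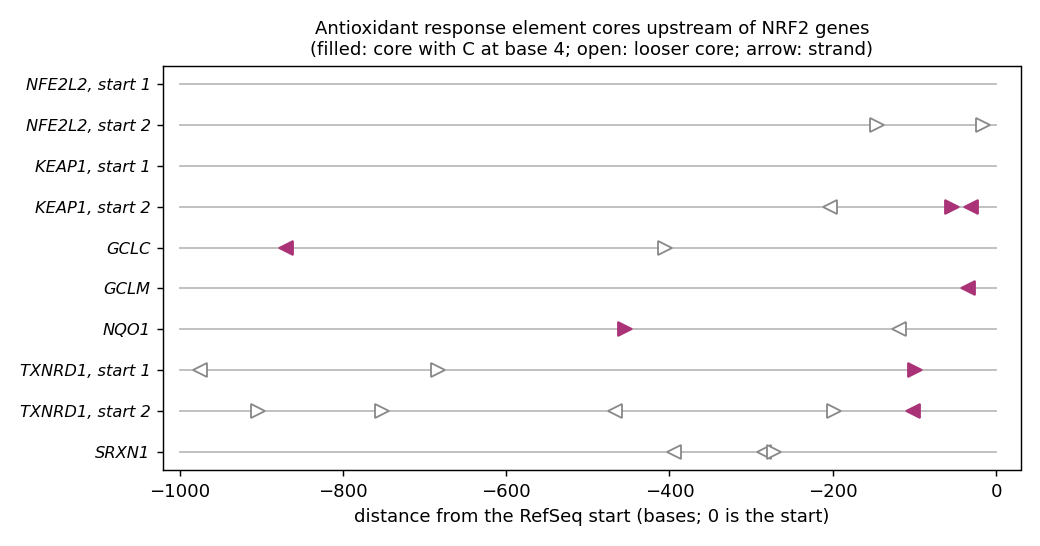
Positions of motif matches in the 1000 bases before 10 RefSeq starts of 7 genes, one line per start, with distance to the start in bases on the horizontal axis. Filled arrows are the core TGACNNNGC and open arrows the looser form, each pointing along its strand, and core matches lie before 6 of the 10 starts.

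Libraries held between 64571681 and 103518036 counts. *TRPV4* was low throughout and lay at 0.424, 0.436 and 0.525 counts per 1000000 of the scaled library (CPM) in SC cells at 0.77 cP, 0.647, 0.466 and 0.264 at 8 cP, and 0.0764, 0.0128 and 0.144 in shTRPV4 cells. Every shTRPV4 library was below every SC library, and at 8 cP *TRPV4* fell by 82.4% with the knockdown (adjusted p = 0.00219 by the quasi-likelihood test of edgeR, adjusted after Benjamini and Hochberg). Markers of the line, *VIM*, *CD44*, *AXL*, *KRT8* and *KRT18*, were all at 285 CPM or more, and *ESR1* and *PGR* had at most 4 counts. *EPCAM*, listed as low in this line, reached 16.9 to 19.4 CPM. Of 6 markers of leukocytes, endothelium and fibroblasts, *CD3E* and *CDH5* had at most 6 counts and *PTPRC* at most 17. *PECAM1*, *COL1A1* and *PDGFRB* were low but measurable, and the 6 summed to 15.9 to 19.1 CPM in SC cells at 0.77 cP, 11.7 to 12.8 at 8 cP and 11.4 to 12.5 in shTRPV4 cells. The sum was thus lower in both 8 cP groups, and its part in the differences below was not tested.

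Library sizes for CPM were scaled by the trimmed mean of M-values (TMM). Fold changes are given with their standard error (SE), and p-values were adjusted over all 18264 genes with a threshold of 0.05. Raising the viscosity of SC cells from 0.77 to 8 cP was accompanied by higher counts of 5 of the 9 genes: *SLC7A11*, *GCLM*, *NQO1*, *GCLC* and *TXNRD1* rose, by between 11.3% and 43.6%. Of all genes tested, 19.3% passed the same threshold, 9.57% as higher and 9.69% as lower. The median log2 fold change of the 9 genes was 0.20, beside -0.0065 for all genes, and the estimate was above 0 for each of the 9. In 7 of them every 8 cP library of SC cells exceeded every 0.77 cP library, beside 38.4% of all genes whose groups did not overlap in either direction. In bulk RNA a change in every cell and a change in part of the cells cannot be told apart.

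Knockdown of *TRPV4* at 8 cP moved fewer of them, and in both directions: *HMOX1* rose while *SLC7A11* and *NQO1* fell. These are 3 of 9. Over all genes tested 20.0% passed, 9.02% as higher and 11.0% as lower. The groups did not overlap for 5 of the 9 and for 36.3% of all genes. The median log2 fold change was 0.03 for the 9 genes and 0.00064 for all. The SC libraries at 8 cP enter both comparisons, so the values of one are not independent of those of the other.

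Set against SC cells at 0.77 cP, shTRPV4 cells at 8 cP differ in hairpin and in viscosity together, and this comparison separates neither. *GCLC*, *GCLM*, *HMOX1*, *NQO1*, *TXNRD1* and *SRXN1* were higher, 6 of 9. Over all genes tested 42.4% passed, 20.4% as higher and 22.0% as lower. Groups did not overlap for 7 of 9 and for 50.6% of all genes. The medians were 0.22 and -0.011.

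**Figure D2:**
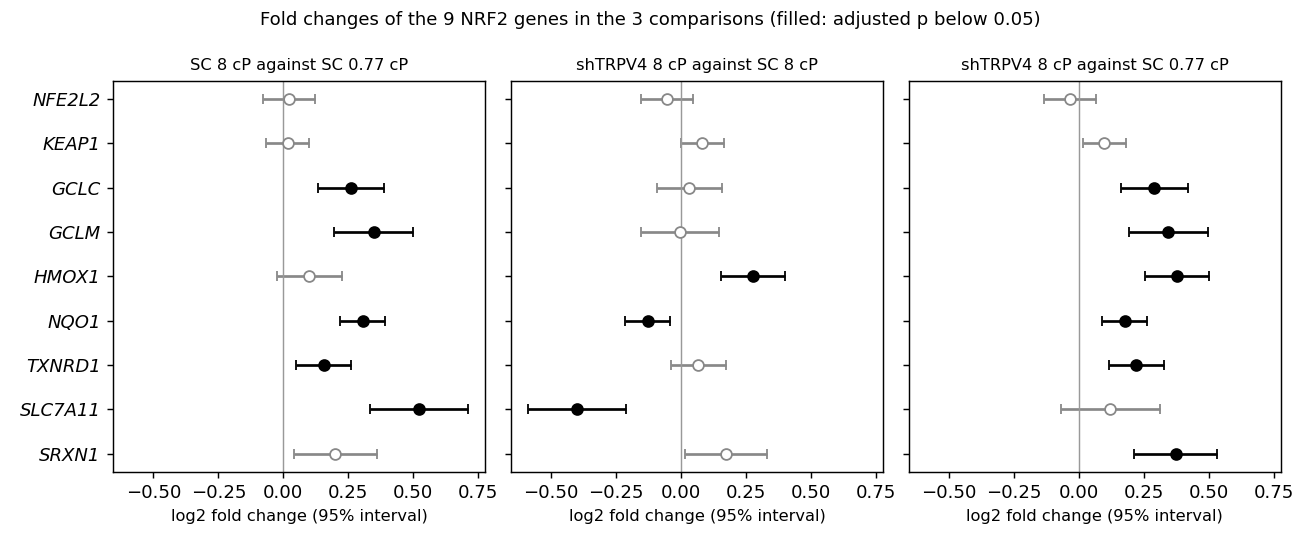
Log2 fold changes of the 9 genes in the 3 comparisons, with 95% confidence intervals as bars. Filled symbols have an adjusted p below 0.05 and lie right of 0 for 5 genes with viscosity, for 1 of 3 with knockdown and for 6 when both change.

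Neither regulator passed the test in any of the 3 comparisons. *NFE2L2* (ENSG00000116044, chr2:177218667-177392756, minus strand, GRCh38) lay at 147, 160.3 and 148 CPM in SC cells at 0.77 cP, at 152, 152 and 158 CPM at 8 cP, and at 142, 153 and 149 CPM in shTRPV4 cells. All 3 groups overlapped. Its log2 fold change was 0.02 (95% confidence interval -0.08 to 0.12, adjusted p = 0.793, edgeR) with viscosity and -0.05 (-0.15 to 0.05, adjusted p = 0.463, edgeR) with knockdown. Of its 14975 exon bases, 2037 belong also to a second gene of that strand and 3710 to genes on the opposite strand, mainly *HNRNPA3*.

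*KEAP1* (ENSG00000079999, chr19:10486125-10503558, minus strand) encodes the substrate adaptor that holds NRF2 down. SC cells had 140.1, 142 and 144 CPM at 0.77 cP and 142, 145 and 144 CPM at 8 cP, and shTRPV4 cells had 152, 149 and 155 CPM. Each shTRPV4 library exceeded all SC libraries, while the SC groups overlapped. The log2 fold change was 0.02 (-0.07 to 0.10) with viscosity and 0.08 (SE 0.039, adjusted p = 0.159, edgeR) with knockdown. Against SC cells at 0.77 cP it was 0.10 with an adjusted p of 0.0536 in edgeR, which was 0.0446 with at least 10 counts in every sample and 0.0464 without SC 0.77 cP replicate 3. DESeq2 gave 0.0237.

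Among the genes that make glutathione, *SLC7A11* showed the largest differences of the 9, both with viscosity and with knockdown. It encodes xCT, the transporter that brings in cystine for glutathione synthesis in exchange for glutamate, and lies on the minus strand at chr4:138164097-138242349 (ENSG00000151012). SC cells had 35.7, 40.5 and 35.0 CPM at 0.77 cP and 49.5, 49.8 and 60.0 CPM at 8 cP. The shTRPV4 cells had 34.9, 44.8 and 41.2 CPM. The SC 8 cP libraries stood above all others, replicate 3 the most, and the remaining groups overlapped. *SLC7A11* rose by 0.52 on the log2 scale with viscosity (SE 0.089, adjusted p = 0.00159, edgeR), a fold change of 1.44. With knockdown it fell by 0.40 (SE 0.089, adjusted p = 0.00504, edgeR), so the level fell by 24.2%. Against SC cells at 0.77 cP, shTRPV4 cells differed by 0.12 (-0.07 to 0.31, adjusted p = 0.299, edgeR). Without shTRPV4 replicate 1, the lowest of its group, this became 0.22 with an adjusted p of 0.0442.

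*GCLC* and *GCLM* encode the catalytic and the modifier subunit of glutamate-cysteine ligase, the enzyme of the rate-limiting step of glutathione synthesis. *GCLC* (ENSG00000001084, chr6:53497341-53616970, minus strand) lay at 27.3, 29.3 and 27.7 CPM in SC cells at 0.77 cP, at 32.8, 32.4 and 35.7 CPM at 8 cP, and at 37.0, 32.8 and 33.3 CPM in shTRPV4 cells. Both 8 cP groups were above all 0.77 cP libraries and overlapped each other. It rose by 19.7% with viscosity (log2 fold change 0.26, SE 0.060, adjusted p = 0.00826, edgeR), and the log2 difference with knockdown was 0.03 (-0.09 to 0.16, adjusted p = 0.757, edgeR).

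*GCLM* (ENSG00000023909, chr1:93885199-93909456, minus strand) was at 68.9, 86.1 and 86.3 CPM in SC cells at 0.77 cP. With 8 cP it reached 101, 101 and 105 CPM in SC cells and 108, 101 and 96.9 CPM in shTRPV4 cells. Replicate 1 was the low one at 0.77 cP, and both 8 cP groups were again above that group and overlapped each other. The rise with viscosity was 27.2% (log2 fold change 0.35, SE 0.071, adjusted p = 0.00451, edgeR). With knockdown the log2 difference was -0.0031 (-0.15 to 0.15, adjusted p = 0.982, edgeR).

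The thioredoxin branch was represented by *TXNRD1*, whose product reduces thioredoxin with NADPH, and *SRXN1*, whose product sulfiredoxin repairs over-oxidized peroxiredoxins. *TXNRD1* (ENSG00000198431, chr12:104215779-104350307, plus strand) lay at 1038, 1117 and 1061 CPM in SC cells at 0.77 cP, at 1205, 1219.6 and 1156 CPM at 8 cP, and at 1176, 1281 and 1294 CPM in shTRPV4 cells. The 0.77 cP group was below all 8 cP libraries, and the 8 cP groups overlapped. It rose by 11.3% with viscosity (log2 fold change 0.16, SE 0.049, adjusted p = 0.0387, edgeR) and differed by 0.07 (-0.04 to 0.17, adjusted p = 0.381, edgeR) with knockdown. This rise was close to the threshold: the adjusted p was 0.0554 with upper quartile scaling and between 0.0541 and 0.137 without SC 0.77 cP replicate 1 or 3, any 1 SC 8 cP replicate or shTRPV4 replicate 2.

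*SRXN1* (ENSG00000271303, chr20:646615-653200, minus strand) lay at 10.5, 12.2 and 12.2 CPM in SC cells at 0.77 cP, at 12.9, 13.7 and 13.4 CPM at 8 cP, and at 16.0, 14.3 and 14.8 CPM in shTRPV4 cells. The 3 groups did not overlap and followed one another in that order. Neither step passed the test: the log2 fold change was 0.20 (SE 0.075, adjusted p = 0.0746, edgeR) with viscosity and 0.17 (SE 0.074, adjusted p = 0.118, edgeR) with knockdown. The viscosity step had an adjusted p of 0.0429 in DESeq2 and, without SC 0.77 cP replicate 3, of 0.0402 in edgeR. The whole difference from SC cells at 0.77 cP to shTRPV4 cells was 0.37 (SE 0.075, adjusted p = 0.000911, edgeR), or 29.5%. Of its 2528 exon bases, 2292 (90.7%) belong also to another annotated gene on the same strand, ENSG00000270299, so its counts are uncertain.

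*NQO1* encodes the quinone reductase that takes quinones to hydroquinones with NADH or NADPH, and is a standard readout of NRF2. It lies on the minus strand at chr16:69706996-69726668 (ENSG00000181019). SC cells had 248, 255 and 246 CPM at 0.77 cP and 303, 304 and 318 CPM at 8 cP, and shTRPV4 cells had 286, 282 and 279 CPM. No group overlapped another, with shTRPV4 cells between the SC groups. The rise with viscosity was 23.6% (log2 fold change 0.31, SE 0.041, adjusted p = 0.000229, edgeR). *NQO1* fell by 0.13 on the log2 scale with knockdown (SE 0.041, adjusted p = 0.0370, edgeR), and shTRPV4 cells remained 13.1% above SC cells at 0.77 cP (adjusted p = 0.00254, edgeR). The fall passed the threshold neither with no filter on low counts (adjusted p = 0.0856) nor without any 1 SC 8 cP replicate, shTRPV4 replicate 2 or shTRPV4 replicate 3 (0.0730 to 0.153).

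*HMOX1* encodes haem oxygenase 1, which opens haem into biliverdin, iron and carbon monoxide, and answers to other stress factors besides NRF2. On the plus strand at chr22:35380361-35394214 (ENSG00000100292), it shares no exon base with another gene. SC cells had 13.4, 14.1 and 13.4 CPM at 0.77 cP and 14.4, 14.6 and 14.8 CPM at 8 cP, and shTRPV4 cells had 17.8, 17.2 and 18.1 CPM. The groups stood apart, by a narrow margin between the SC groups and a wider one to the shTRPV4 cells. With knockdown *HMOX1* rose by 21.2% (log2 fold change 0.28, SE 0.058, adjusted p = 0.00340, edgeR). With viscosity the log2 fold change was 0.10 (-0.02 to 0.23, adjusted p = 0.253, edgeR).

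**Figure D3:**
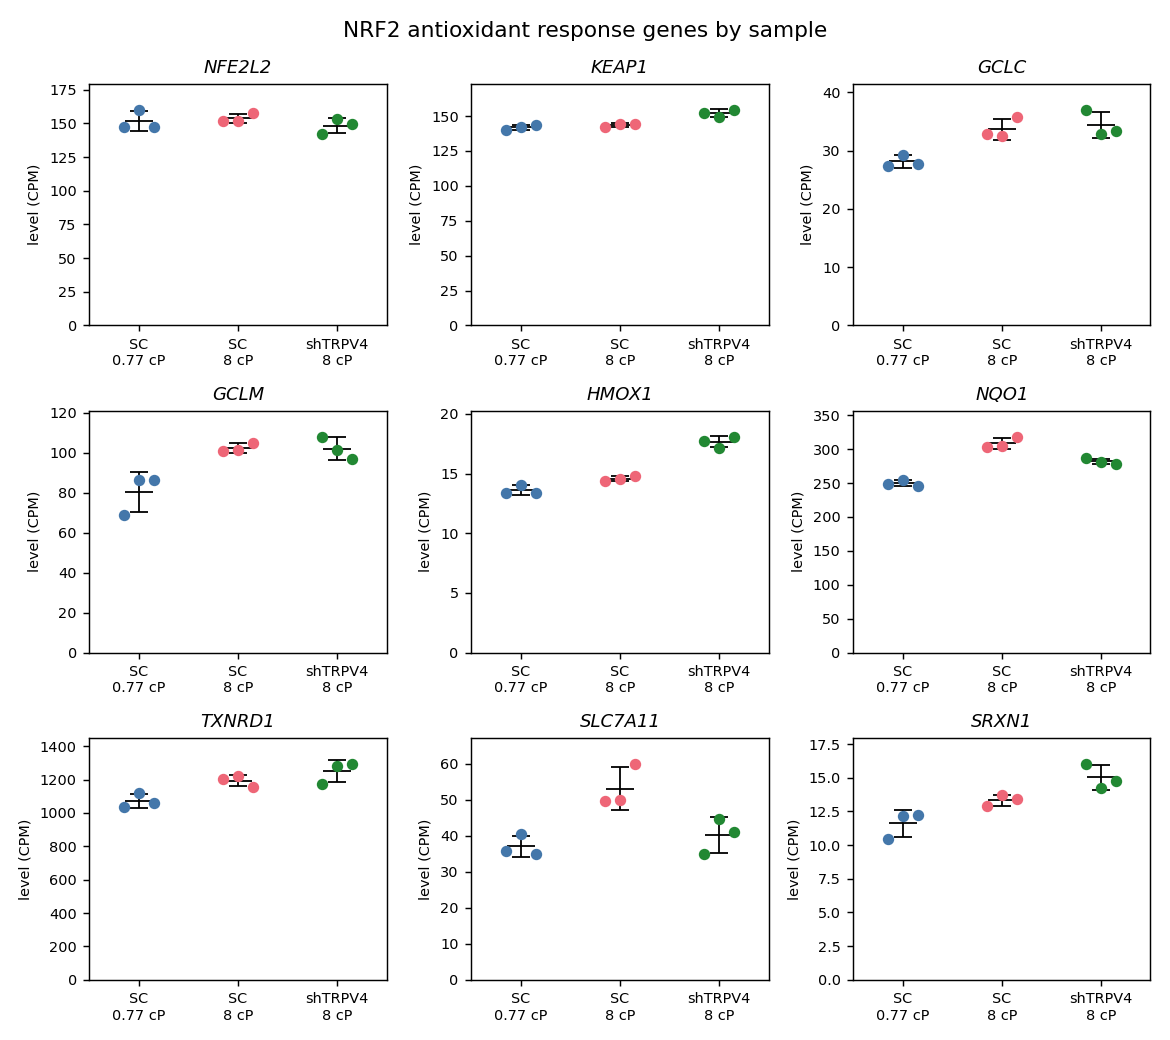
CPM of each of the 9 genes in the 9 libraries, one panel per gene with its own axis from 0, points for replicates and a bar with whiskers for mean and SD of 3. SC cells at 8 cP stand above the other groups for *SLC7A11* and *NQO1*, and shTRPV4 cells for *HMOX1*, *KEAP1* and *SRXN1*.

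Between genes, levels were compared as CPM per kilobase of annotated exon. In SC cells at 0.77 cP the order ran from *TXNRD1* at 160 ± 6.1 (SD, n = 3) and *NQO1* at 84.0 ± 1.6 through *KEAP1* at 39.7 ± 0.51, *GCLM* at 14.8 ± 1.8 and *NFE2L2* at 10.1 ± 0.50. *HMOX1* followed at 5.90 ± 0.17, *SRXN1* at 4.60 ± 0.40, *SLC7A11* at 3.84 ± 0.31 and *GCLC* at 3.26 ± 0.12. In that group *SRXN1* and *SLC7A11* were the only neighbours whose libraries overlapped. The first 6 places were the same in the other 2 groups. *SLC7A11* stood at 5.51 ± 0.62 CPM per kilobase in SC cells at 8 cP, overlapping *SRXN1* at 5.27 ± 0.17, and at 4.18 ± 0.52 in shTRPV4 cells, overlapping *GCLC* at 3.99 ± 0.27. All annotated exon bases were used, so genes with long exons that these cells do not use are placed too low, and the place of *SRXN1* is uncertain because of its shared exons.

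The genes whose pattern lay closest to *NFE2L2* over the 9 libraries, by Pearson correlation of log2 CPM among 13107 genes, were *PSMC2P1* (r = 0.917), *ZFP14* (0.915) and *NDUFB8* (0.900). For *HMOX1* they were *PTCD2*, *CDK15* and *DIXDC1*, each at 0.990. Mean CPM of *CDK15* went from 8.96 in SC cells at 0.77 cP to 11.2 at 8 cP and 20.1 in shTRPV4 cells, that of *PTCD2* from 10.8 to 11.6 and 13.6, and that of *DIXDC1* from 4.08 to 4.77 and 7.57. These points share 3 groups and 9 libraries, so the correlations describe the samples only.

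Around these genes, 82 further genes of the antioxidant pathway in 7 lists were tested. With viscosity 25 of the 82 passed, 14 higher and 11 lower, beside 19.3% of all genes. With knockdown 21 passed, 6 higher and 15 lower, beside 20.0%, and with both changed 49 passed, 22 higher and 27 lower, beside 42.4%. Their median log2 fold changes were -0.0047, -0.062 and -0.018.

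Among 16 regulators and partners of NRF2, 6 passed with viscosity, 3 in each direction, beside 19.3% of all genes. The small MAF genes encode the partners that NRF2 needs on DNA, and 2 of the 3 fell: *MAFF* from 99.5 to 57.3 CPM (log2 fold change -0.80, adjusted p = 3.7e-06, edgeR) and *MAFK* from 66.0 to 42.8 CPM (-0.62, adjusted p = 5.6e-07, edgeR). The third, *MAFG*, lay at 89.4 and 92.6 CPM (0.05, adjusted p = 0.498, edgeR), a value given after it was seen. *BACH1*, which encodes a repressor at the same element, fell from 62.2 to 55.1 CPM, and *CUL3*, the ligase scaffold that works with KEAP1, rose from 61.7 to 69.9 CPM. The adjusted p in edgeR was 0.0136 for *BACH1*, and 0.0529 to 0.0856 without SC 0.77 cP replicate 2 or any 1 SC 8 cP replicate. For *CUL3* it was 0.0199, and 0.0936 or 0.0874 without SC 0.77 cP replicate 1 or SC 8 cP replicate 3. With knockdown 1 of the 16 passed, beside 20.0% of all genes: *NFE2L1*, a relative of NRF2, from 363 to 334 CPM (adjusted p = 0.0451, edgeR). Its adjusted p was 0.0589 to 0.172 without SC 0.77 cP replicate 2, any 1 SC 8 cP replicate or shTRPV4 replicate 1 or 2. Median log2 fold changes of the list were -0.0058 and -0.00043.

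Of 19 further glutathione genes tested, 7 passed with viscosity, 6 higher and 1 lower, beside 19.3% of all genes, and the list median was 0.067. *GPX8*, a peroxidase of the endoplasmic reticulum, rose from 77.3 to 94.9 CPM (adjusted p = 0.00213, edgeR), *GGCT*, which acts in the breakdown of γ-glutamyl peptides, from 18.1 to 22.3 CPM (0.00328), and *SLC3A2*, the heavy chain that carries xCT to the membrane, from 231 to 278 CPM (0.00609). *GLRX*, a glutaredoxin, fell from 48.3 to 38.7 CPM (0.00279). With knockdown 9 passed, 3 higher and 6 lower, beside 20.0% of all genes, with a median of -0.095. *GGCT* rose further to 30.5 CPM (adjusted p = 6.7e-05, edgeR) and *SLC3A2* to 337 CPM (0.00321), while its partner *SLC7A11* fell. *GSTK1*, a glutathione transferase, rose from 63.1 to 73.4 CPM (0.00257), and *GLRX* fell again, to 31.4 CPM (0.0024). The other genes called lower were *GPX1* (579 to 488 CPM), *GPX3* (148 to 127), *GPX4* (286 to 240), *GSTP1* (350 to 306) and *MGST2* (16.9 to 13.4). Their adjusted p lay between 0.0044 and 0.0144 in edgeR. Of these only *GPX1* was followed through the alternatives described below. When hairpin and viscosity both changed, 16 of the 19 passed, 8 in each direction, beside 42.4% of all genes.

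In the thioredoxin and peroxiredoxin list, 3 of 11 passed with viscosity and 3 with knockdown, at medians of -0.035 and -0.10. These shares are above the 19.3% and 20.0% of all genes called, by few genes. *PRDX5*, a peroxiredoxin of mitochondria and peroxisomes, fell with viscosity from 249 to 189 CPM (adjusted p = 0.00541, edgeR). *PRDX6* and *PRDX1* rose from 220.0 to 244 and from 338 to 374 CPM (0.0275 and 0.0402). *PRDX6* lost the call without SC 0.77 cP replicate 1 or 2 or SC 8 cP replicate 1 or 3 (0.062 to 0.118), and *PRDX1* without SC 0.77 cP replicate 1 or 2, SC 8 cP replicate 2 or 3 or shTRPV4 replicate 2 (0.0533 to 0.137). With knockdown *SESN2*, a stress-induced sestrin, fell from 19.6 to 14.9 CPM (0.00511), and *PRDX4*, the peroxiredoxin of the endoplasmic reticulum, from 193 to 159.9 CPM (0.00548). *PRDX3*, the mitochondrial one, rose from 282 to 317 CPM (0.0233), a call lost without any 1 SC 8 cP replicate or shTRPV4 replicate 2 or 3 (0.0559 to 0.106).

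NADPH supplies the reducing power for both branches. Of 7 genes that provide it, 4 passed with viscosity: *TKT* fell from 641 to 563 CPM (adjusted p = 0.0186, edgeR), *IDH1* from 64.8 to 52.6 CPM (0.0198) and *PGLS* from 46.8 to 41.7 CPM (0.0477), and *ME1* rose from 22.4 to 25.2 CPM (0.0304). With knockdown 1 passed, *TALDO1*, from 252 to 229.8 CPM (0.0386). Of all genes, 19.3% and 20.0% were called. All 5 calls were lost without SC 8 cP replicate 1 or replicate 3 (0.054 to 0.216), and the 4 with viscosity without SC 0.77 cP replicate 1 (0.0858 to 0.155). Without SC 0.77 cP replicate 2 the calls of *TKT*, *IDH1*, *PGLS* and *TALDO1* were lost (0.0544 to 0.208), without replicate 3 that of *ME1* (0.0545), without SC 8 cP replicate 2 those of *TKT*, *PGLS* and *TALDO1* (0.0559 to 0.139), without shTRPV4 replicate 1 that of *TALDO1* (0.113) and without shTRPV4 replicate 2 those of *PGLS* and *TALDO1* (0.0696 and 0.122).

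Of 17 genes that handle quinones, carbonyls and conjugates, 2 passed with viscosity, 1 higher and 1 lower, beside 19.3% of all genes. With knockdown 5 passed, 2 higher and 3 lower, beside 20.0%. The list medians were -0.025 and -0.023. The first share is below the background and the second above it, each by few genes. *CBR3*, a carbonyl reductase, rose with viscosity from 4.43 to 5.67 CPM (adjusted p = 0.00858, edgeR). *ABCC3*, an export pump for conjugates, fell from 61.6 to 49.4 CPM (0.0117), a call lost without SC 0.77 cP replicate 1 (0.086) or SC 8 cP replicate 3 (0.0737). With knockdown *PIR*, which encodes pirin, fell from 12.0 to 8.48 CPM (adjusted p = 7.6e-05, edgeR) and *OSGIN1*, an oxidative stress-induced growth inhibitor, from 26.1 to 19.8 CPM (0.00187). The aldo-keto reductases *AKR1C1* and *AKR1C2* rose from 6.94 to 10.5 and from 2.31 to 3.58 CPM (0.00627 and 0.0285), but their transcripts are nearly identical and the split of reads between them is uncertain. *AKR1C2* lost its call without SC 8 cP replicate 2 or 3 or shTRPV4 replicate 2 (0.101 to 0.111). *AKR1C3*, called but outside the 4 genes of smallest adjusted p, fell with knockdown from 80.6 to 68.3 CPM (0.0311). *AKR1C3* lost the call without SC 8 cP or shTRPV4 replicate 1 or 2 (0.0654 to 0.109).

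Of 9 genes of haem and iron, 2 passed with viscosity and 1 with knockdown, with medians of 0.029 and -0.0089, near or below the 19.3% and 20.0% of all genes called. *BLVRB*, a biliverdin reductase that acts after haem oxygenase, fell from 87.1 to 72.9 CPM with viscosity (adjusted p = 0.0242, edgeR) and to 61.0 CPM with knockdown (0.0231). *FTH1*, the ferritin heavy chain, rose with viscosity from 356 to 397 CPM (0.0387). With viscosity *BLVRB* lost the call without SC 0.77 cP replicate 1 or 2 or SC 8 cP replicate 1 or 3 (0.0617 to 0.138), and *FTH1* without SC 0.77 cP replicate 1 or 3 or any 1 SC 8 cP replicate (0.0712 to 0.0928). With knockdown *BLVRB* lost it without SC 8 cP or shTRPV4 replicate 1 or 2 (0.0558 to 0.108).

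**Figure D4:**
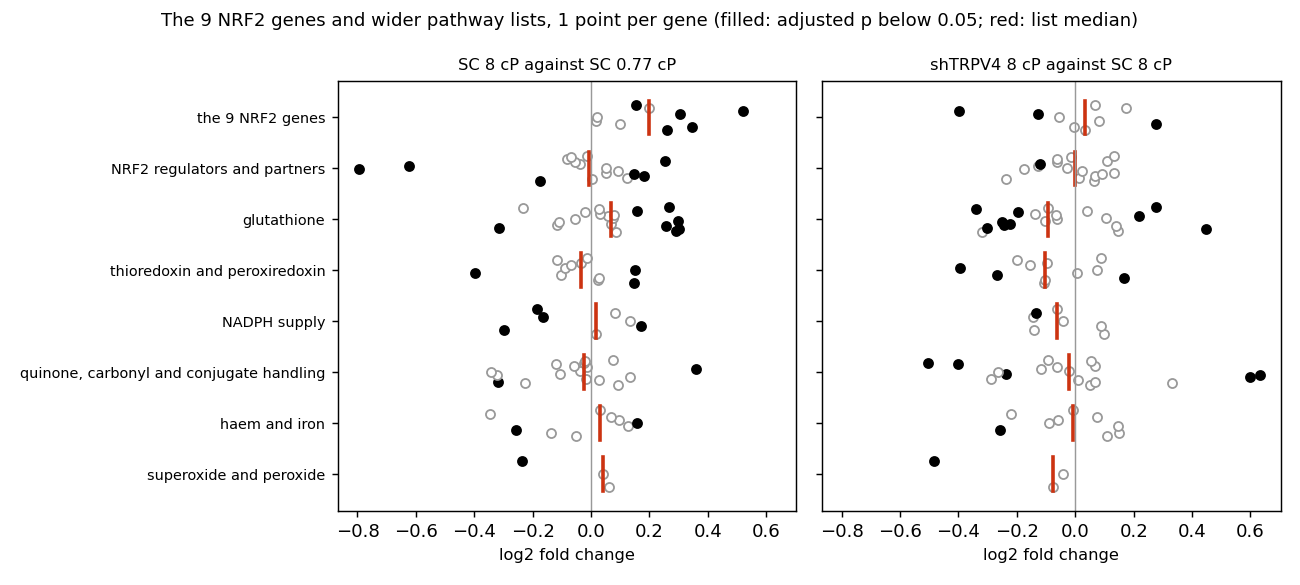
Log2 fold changes of the 9 NRF2 genes and of 7 wider lists with viscosity (left) and with knockdown (right), one line per list and one point per gene, filled for an adjusted p below 0.05, with a red bar at the list median. With viscosity the 9 genes lie above 0, whereas each of these 7 lists has genes on both sides of 0.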

How the data were processed

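Poly(A) RNA of 9 MDA-MB-231 samples was sequenced with a strand-specific kit. The authors mapped the read pairs to GRCh38.p13 with HISAT2 2.2.1, totalled reads on exons per Ensembl gene with HTSeq 0.13.5 and deposited raw counts, 1 file per sample. The strand setting of the counting is not given in the sources used here, so genes that overlap on opposite strands may share reads. Besides *NFE2L2*, this concerns 575 of 2971 exon bases of *NQO1*, 865 of 9645 of *SLC7A11* and 305 of 8618 of *GCLC*. *GCLC* also shares 529 exon bases with a gene of its own strand. *KEAP1*, *GCLM* and *TXNRD1*, like *HMOX1*, share none. Groups and replicate numbers come from the sample titles.

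Counts were analysed with edgeR 4.0.16 under R 4.3.3, which calls limma 3.58.1: TMM scaling, filterByExpr, 1 coefficient per group over all 9 samples, the quasi-likelihood test and Benjamini-Hochberg adjustment over 18264 genes. The replicates set the precision (common biological coefficient of variation 0.0633). An exact permutation test of 3 against 3 samples cannot go below p = 0.1 and was not used. IDs were matched to symbols for 60463 of 60664 genes. Positions, exon lengths and shared exon bases are those of GENCODE annotation on GRCh38, and promoters are from RefSeq. The authors counted on another annotation release, so the exons used for counting may differ from these.

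Named were all 9 genes, *TRPV4*, and the 3 genes nearest in pattern to *NFE2L2* and *HMOX1*. From each list and comparison, up to 4 genes of smallest adjusted p among those called were named. Named in addition were *MAFG*, *AKR1C3*, *DPP3* and the further glutathione genes called lower with knockdown. For the comparison that changes hairpin and viscosity together the lists are given by counts. Genes and lists were chosen with earlier results of these data known. *SOD2* was not matched to a single ID by symbol and was left out, and *GPX2* was too low to test.

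The steps were tested on simulated data for the viscosity comparison. Of 99 and 98 genes given a log2 change of 0.5 or 1, 61.6% and 77.6% were called, and of 17786 unchanged genes 0.0787%. The share of changed genes was far below the 19.3% called in the data. The adjustment depends on that share, so these rates do not carry over to the data. Changes smaller than 0.5 were not simulated. Alternatives were DESeq2 1.42.0, upper quartile scaling, no filter, at least 10 counts in every sample, the 6 samples of a comparison only, the replicate number as a block, and leaving out each sample in turn.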

Additional observations from a re-analysis of the deposited data

How the results depend on the processing

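For the 9 genes, 405 estimates were made under alternatives: 381 kept direction and side of the threshold, 13 lost the call, 6 gained it, and 5 changed direction, all of them estimates near 0 that passed in no fit. These were *GCLM* with knockdown without SC 8 cP replicate 3 or shTRPV4 replicate 2 or 3 (range without 1 library -0.046 to 0.033), *GCLC* with knockdown without shTRPV4 replicate 1 (-0.025 to 0.077), and *NFE2L2* without SC 0.77 cP replicate 2 when hairpin and viscosity both change (-0.057 to 0.015). *GCLC*, *GCLM*, *NQO1* and *SLC7A11* with viscosity, and *HMOX1* and *SLC7A11* with knockdown, passed in all 15 alternatives. Leaving out 1 library moved the count of all genes called most: from 1409 to 4349 with viscosity and from 2179 to 3836 with knockdown, and the 93 wider genes, ATF4 list included, called with viscosity from 13 to 34. The lowest counts with viscosity came without SC 0.77 cP replicate 1 (1409 genes, 13 wider genes) and SC 8 cP replicate 3 (1418 and 13), then SC 0.77 cP replicate 2 (1927 and 18). For knockdown they came without SC 8 cP replicate 2 (2179) and replicate 1 (2361). Such fits hold fewer samples.

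Replicate numbers did not pair the samples: deviations of same-numbered samples correlated at a mean of 0.0066 (-0.055 to 0.090 over 9 pairs), and 2 of 9 samples correlated best with their own number. With the replicate number as a block, 3475, 3607 and 7731 genes were called in the 3 comparisons, 5, 3 and 6 of the 9 genes and 29, 27 and 58 of the wider genes. *FTH1* and *PGLS* with viscosity and *NFE2L1* with knockdown were not called under the block (adjusted p = 0.0516, 0.0645 and 0.0525, edgeR).

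Among the wider genes followed through the alternatives, *PRDX1* and *FTH1* lost their call with viscosity under upper quartile scaling. When no filter was applied, *PGLS* and *ME1* lost it with viscosity and *NFE2L1* and *TALDO1* with knockdown. *TALDO1* also lost it with the 6 samples of the comparison only. *DPP3*, of the list of regulators and partners, was called with viscosity (adjusted p = 0.0276, edgeR). It kept the call in 5 of the 6 alternatives that use all samples of the comparison and in 5 of the 9 fits without 1 library. Uncalled estimates whose range without 1 library crossed 0 were, with viscosity, *PIR* (-0.038 to 0.0011), *AKR1C1* (-0.014 to 0.34), *SESN2* (-0.21 to 0.0058) and *VLDLR* (-0.11 to 0.0082), and, with knockdown, *SLC7A1* (-0.012 to 0.10) and *PRDX5* (-0.075 to 0.088).

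Within each group, replicates differed beyond counting noise, by 6.4 to 29.7 chi-square units per gene. Such differences do not tell separate cultures from separate preparations of the same culture. Depth limited *TRPV4*, with 1 to 64 counts per library. *HMOX1* and *SRXN1* had at least 782.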

Other observations

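*SLC7A11* and *SLC3A2* are also known targets of ATF4, the factor of the amino acid response. Of 11 genes of that response, 5 passed with viscosity, 3 higher and 2 lower, beside 19.3% of all genes, at a median log2 fold change of -0.11. *SLC7A5*, whose product also pairs with the *SLC3A2* product, rose from 271 to 408 CPM (adjusted p = 0.000787, edgeR). *SLC7A1*, a carrier of cationic amino acids, rose from 145 to 187 CPM (0.0032). *DDIT3*, the stress factor CHOP, fell from 35.6 to 14.6 CPM (adjusted p = 4.7e-09, edgeR) and *DDIT4*, an inhibitor of mTORC1 signalling, from 340.4 to 208 CPM (6.4e-05).

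With knockdown at 8 cP 5 of the 11 passed, 1 higher and 4 lower, beside 20.0% of all genes, at a median of -0.085. *SLC7A5* rose again, to 605 CPM (adjusted p = 0.000491, edgeR), whereas *SLC7A11* fell. *DDIT4* fell to 119 CPM (1.1e-05), *DDIT3* to 11.6 CPM (0.00372) and *VLDLR*, a lipoprotein receptor, from 23.3 to 18.4 CPM (0.00213). *SLC7A5* and *SLC3A2* thus rose at both steps and *SLC7A11* at the first only, its second step being a fall. Both comparisons share the SC libraries at 8 cP.

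Of 3 superoxide and peroxide genes tested, *SOD3*, the extracellular superoxide dismutase, was the one called, beside 19.3% and 20.0% of all genes. It fell from 29.1 to 24.7 CPM with viscosity (adjusted p = 0.0214, edgeR), a call lost without SC 0.77 cP replicate 1 or 2 or SC 8 cP replicate 2 or 3 (0.0942 to 0.107), and to 17.7 CPM with knockdown (0.000136), a call kept in all 9 fits without 1 library.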
